A study of Mus musculus with 8 samples.

Results

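Genes of the interleukins, the tumour necrosis factor (TNF) superfamily and the receptors of both were followed in kidney RNA of diabetic mice given rFGF4 or vehicle. Members were the rows of the gene table whose symbol is Il, Tnfsf or Tnfrsf followed by a number, or is Tnf, Lta, Ltb or Ltbr, with Il17rd, a regulator of FGF signalling, left out. Of 55401 rows, 118 were members. The symbols of Il1bos, Il4i1 and Tnfsf13os match the rule, but none of them is an interleukin, a TNF ligand or a receptor, and they were kept as unclassified. The comparison asked whether the kidney levels of these messengers and receptors differed between rFGF4-treated and vehicle-treated mice.

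There were 8 libraries of kidney tissue, 4 from mice that received rFGF4 (numbered 1, 2, 3 and 5) and 4 from mice that received the vehicle (numbered 2, 3, 4 and 5). They are called mice by these numbers here, although the labels do not say that each library came from a separate animal. rFGF4 is a recombinant, non-mitogenic form of human fibroblast growth factor 4, and the vehicle was PBS. The series design and the genotype label of the vehicle samples name db/db mice, which lack a working leptin receptor and become obese and diabetic, and the labels of the rFGF4 samples give the treatment without a genotype. The text of the study instead describes the sequenced kidneys as coming from mice made diabetic with streptozotocin (STZ), a toxin for insulin-producing cells. For both models it gives intraperitoneal rFGF4 at 1 mg/kg on alternate days over 8 weeks, to males. Its figure legends put the first dose at 12 weeks of age, but its methods give a later age for the STZ injections than those legends do, so the age in the STZ model is uncertain. All 8 libraries came from diabetic mice, so the data hold no healthy kidney and no untreated time point. In bulk tissue, fewer cells of a type and less RNA per cell cannot be told apart.

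Interleukins and TNF superfamily ligands are small secreted or membrane-bound proteins by which immune, epithelial and stromal cells signal to each other. Most interleukin receptors pair a ligand-binding chain with a shared chain and signal through JAK kinases, whereas IL-1 and IL-17 receptors and the TNF receptors recruit adaptor proteins that lead to NF-kB, MAP kinases or, through a death domain, to cell death. In the kidney, tubular and glomerular cells express many of the receptors, while many of the ligands are made by infiltrating leukocytes, and raised TNF receptor levels in blood are a known marker of progressing diabetic kidney disease.

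Values are FPKM (the fragments on a gene's exons, divided by exon length and by all mapped fragments), a level per length, with 0.0001 standing for 0. The FPKM of a library summed to 389407 to 529835 with rFGF4 and to 481321 to 552604 with vehicle. Mitochondrial transcripts gave 19.0% to 36.0% and 24.4% to 38.4% of these sums, and the depth of the 8 libraries, estimated from genes at low levels, was 0.905 to 1.12 times that of vehicle mouse 2. Read counts were not used here, so the counting error of a value is unknown. Kidney epithelium markers were expressed in every mouse, with all 8 of the list above 0. Their summed FPKM was 1229.9, 2205, 2355 and 2341 in rFGF4-treated mice 1, 2, 3 and 5 and 2190.5, 2016, 2026 and 1546 in vehicle-treated mice 2, 3, 4 and 5, lowest in rFGF4 mouse 1 and next lowest in vehicle mouse 5. Markers of B lymphocytes and plasma cells summed to 23872 FPKM in vehicle mouse 5, where vehicle mice 2, 3 and 4 ranged from 26.7 to 1457, and those of lymph node stroma to 59.3 against 2.81 to 12.1. The libraries of rFGF4 mouse 1 and vehicle mouse 5 thus stood apart from the rest, and the results are given with and without them.

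Most of the abundant members were receptors. Of the 118 members, 50 reached 0.5 FPKM in at least 4 libraries and were tested, 41 stayed under 0.5 FPKM in every library, and 27 reached it in 1 to 3 libraries only. Among the tested members, 8 had a mean over 10 FPKM, and 7 of these were receptors. They were Tnfrsf21, Ltbr, Tnfrsf1a, Il34, Il10rb, Il6st, Il13ra1 and Tnfrsf12a, with means over the 8 mice of 80.6, 32.7, 30.1, 17.1, 12.6, 12.2, 10.2 and 10.0 FPKM. A further 32 had a mean of 1 to 10 FPKM and 10 a mean under 1 FPKM. Il13, Il13ra2, Il17b, Il1rapl2, Il20, Il22ra2, Il3 and Il31 were listed at 0 in all 8 libraries. No member ligand of the IL-6/IL-12, IL-10 or IL-17 families passed the filter, although all 4 IL-17 receptor chains did. Under other symbols, outside the members, the IL-6/IL-12 related ligands Clcf1, Ctf1, Lif and Ebi3 passed it and Osm did not.

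None of the 50 tested members differed between the groups at the threshold that the study applied (a fold change of 1.5 or more, and p under 0.05 before adjustment). Over all 15150 genes tested, 231 (1.52%) passed it, 165 higher and 66 lower in rFGF4-treated mice. No member had an unadjusted p under 0.05, against 4.62% of all genes tested, and none had groups that did not overlap, against 3.33%. With limma, 0 members and 0 genes had an adjusted p under 0.05, and the adjusted p of every member was at least 0.918. By exact two-sided permutation test, no member went below p = 0.143, where the smallest p that 4 against 4 mice allow is 0.0286. Log2 fold changes, on the scale log2(FPKM + 1), were positive for 27 members and negative for 23, with a median of 0.03 for the members and 0.09 for all genes tested, which became -0.05 and -0.01 under median-ratio scaling of the libraries. The medians of the members and of all genes were -0.23 and -0.02 with the replicate number as a block, -0.13 and 0.01 without rFGF4 mouse 1 and 0.23 and 0.15 without vehicle mouse 5. The block fit rests on numbers 2, 3 and 5, the ones found in both groups. Its log2 fold changes take nothing from rFGF4 mouse 1 and vehicle mouse 4. A difference within 0.1 was seen for 22 members.

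The error was wide for most of the family. The 95% interval of the log2 fold change reached past a 1.5-fold change in at least 1 direction for 40 of the 50 members, so a change of that size lay within the error of 4 mice per group. It lay inside 1.5-fold for the other 10, which were Il11ra1, Il11ra2, Il15ra, Il17ra, Il17rb, Il17re, Il18, Il1r1, Il5ra and Tnfrsf26, and inside 2-fold for 25. These are folds of FPKM + 1, a scale that shrinks changes of genes at low levels. They do not exclude a larger change of FPKM itself. This holds most for Il11ra2, Il5ra, Tnfrsf26, Il1r1 and Il18, with means of 0.68, 0.89, 0.61, 1.32 and 1.58 FPKM. The plot of fold changes has Il34 and Il1b at its ends.

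**Figure D1:**
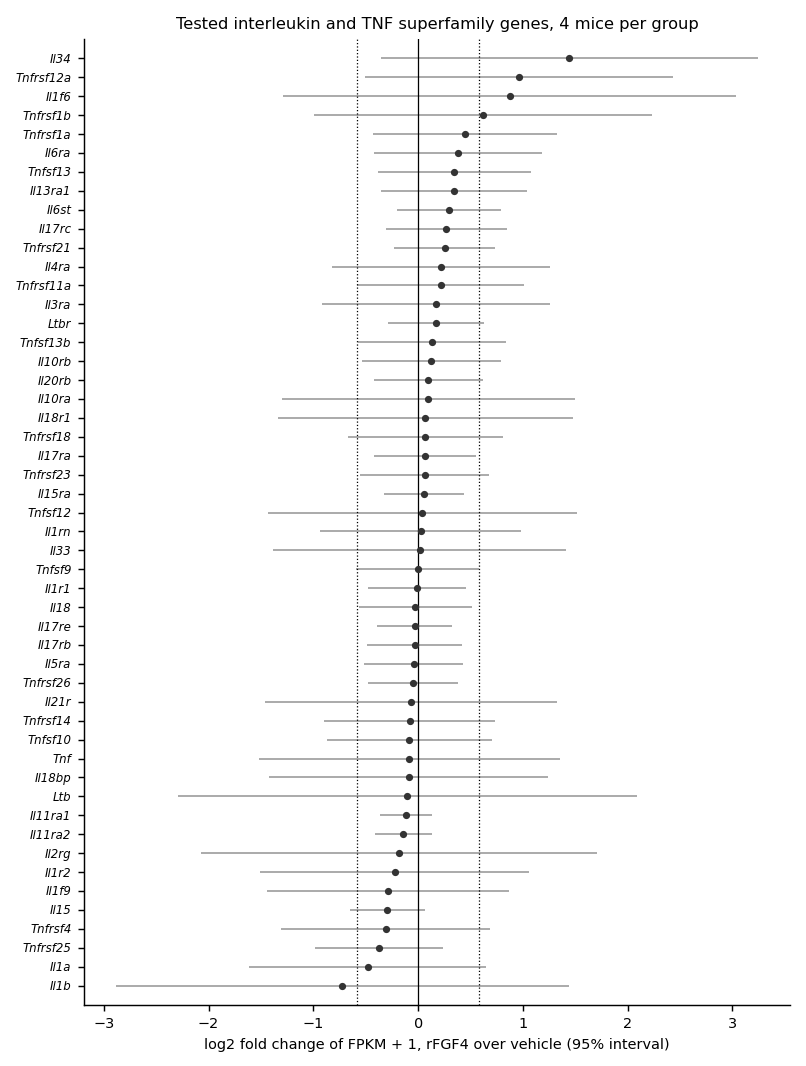
Log2 fold change of each tested member (rFGF4 over vehicle, on log2(FPKM + 1), n = 4 mice per group), as a point with its 95% interval from limma. Dotted lines mark a 1.5-fold change of FPKM + 1. Every interval spans 0, and 40 of 50 reach past a dotted line.

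Among the ligands, Il34 had the largest difference. Il34, a ligand of the macrophage growth factor receptor Csf1r that kidney tubules are known to make after injury (ENSMUSG00000031750, chr8:110741829-110805924, minus strand, GRCm38), measured 72.0, 16.4, 16.3 and 4.20 FPKM in rFGF4-treated mice 1, 2, 3 and 5 and 2.78, 9.04, 2.85 and 13.2 FPKM in vehicle-treated mice 2, 3, 4 and 5. The group means were 27.2 ± 30.4 and 6.98 ± 5.11 FPKM (SD, n = 4). rFGF4 mouse 1 was far above all others, while rFGF4 mouse 5 lay among the vehicle-treated mice. The log2 fold change was 1.44 (SE 0.79; 95% interval -0.36 to 3.25), with an exact permutation p of 0.143 and a limma adjusted p of 0.918. Exons of Il34 overlap those of Gm15894 and Gm15895, and whether the counting used strand is not given in the sources used here.

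Tnfrsf12a, also called Fn14, had the next largest log2 fold change. This receptor for the ligand Tnfsf12 (TWEAK) is known to be induced in injured tissue (ENSMUSG00000023905, chr17:23675445-23677468, minus strand, GRCm38). It measured 30.1, 13.7, 9.54 and 3.08 FPKM in rFGF4-treated mice 1, 2, 3 and 5 and 2.52, 7.42, 2.84 and 11.0 FPKM in vehicle-treated mice 2, 3, 4 and 5. The order of the 4 rFGF4-treated mice was that of Il34, and so was the order of the 4 vehicle-treated mice. These orders were not particular to the pair, as Il17ra, Il1f6, Il2rg, Il3ra, Tnfrsf11a, Tnfrsf14, Tnfrsf1b, Tnfsf13 and the summed macrophage markers also had both of them. The log2 fold change was 0.96 (SE 0.64; 95% interval -0.51 to 2.43), and the limma adjusted p was 0.918. Without rFGF4 mouse 5, both genes passed the threshold, Il34 at a log2 fold change of 2.05 and Tnfrsf12a at 1.47, with adjusted p of 0.502 and 0.506 by limma. Without rFGF4 mouse 1 they were 0.78 and 0.50, and with the replicate number as a block 0.51 and 0.28.

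**Figure D2:**
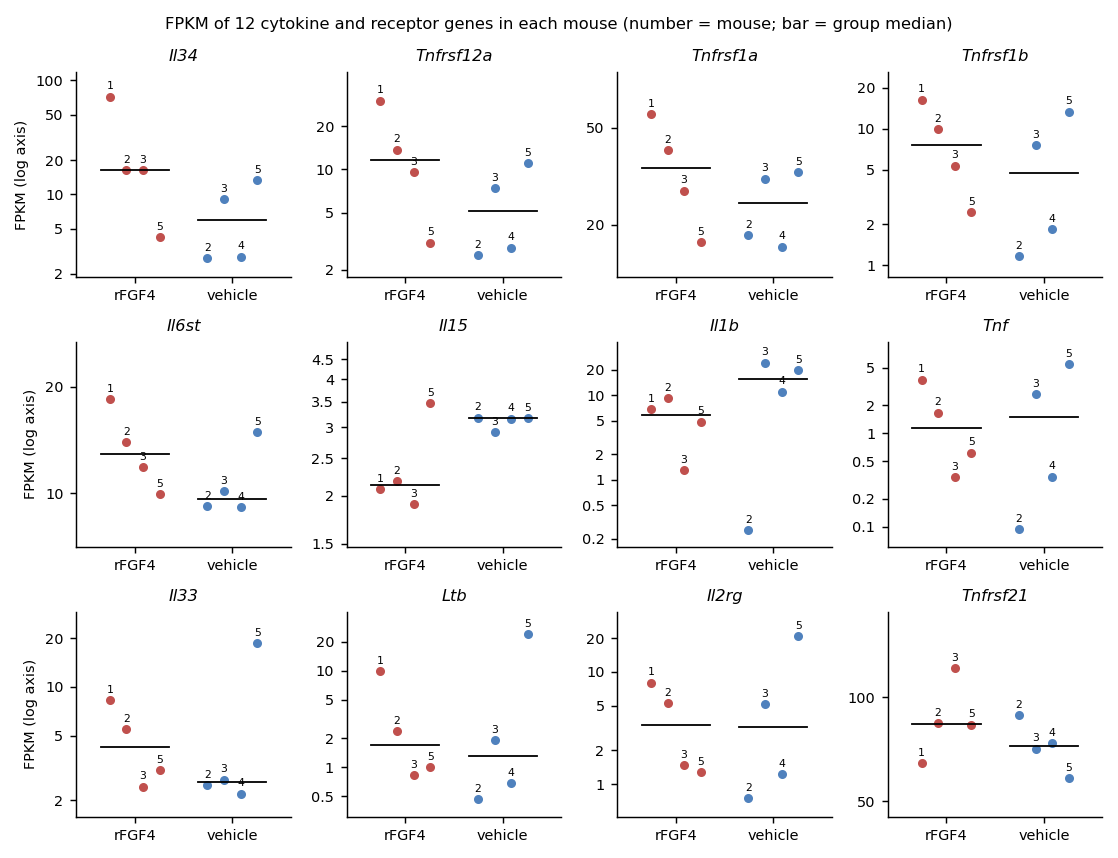
FPKM (log axis) of 12 members in each mouse, with the mouse number above each point and a bar at the group median of 4 mice. rFGF4 mouse 1 is highest for Il34 (72.0) and Tnfrsf12a (30.1), vehicle mouse 5 for Ltb (23.9) and Il33 (18.7), and the groups overlap in every panel.

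Tnfsf12, the ligand of Tnfrsf12a, was near level between the groups. It measured 22.6, 10.8, 2.50 and 4.24 FPKM in rFGF4-treated mice and 5.25, 5.79, 4.43 and 18.9 FPKM in vehicle-treated mice, with a log2 fold change of 0.04 (SE 0.64). The log2 fold change ran from -0.46 to 0.46 on leaving out single mice and was negative with the replicate number as a block. The highest mouse of each group was the same as for Tnfrsf12a, but the 2 groups covered nearly the same range. Exons of Tnfsf12 overlap those of the readthrough gene Tnfsfm13, so its level is uncertain.

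Levels of Il1b, Il1a and Il33 spread more widely among vehicle-treated than among rFGF4-treated mice, whereas those of Il1f6 spread more among rFGF4-treated mice. Il1b, the inflammatory cytokine released by activated macrophages and neutrophils (ENSMUSG00000027398, chr2:129364570-129371139, minus strand, GRCm38), measured 6.85, 9.16, 1.31 and 4.86 FPKM in rFGF4-treated mice and 0.251, 24.3, 11.0 and 20.003 FPKM in vehicle-treated mice. Of the vehicle-treated mice, 3 were above every rFGF4-treated mouse and mouse 2 was below all of them. Its log2 fold change was -0.72 (SE 0.94; 95% interval -2.88 to 1.44), the most negative of the family, with an exact permutation p of 0.514. Without vehicle mouse 2, Il1b passed the threshold at a log2 fold change of -1.70, with an unadjusted p of 0.0128 and a limma adjusted p of 0.999. It was -0.25 without vehicle mouse 3, -0.29 without rFGF4 mouse 3 and -0.34 without vehicle mouse 5. The antisense gene Il1bos overlaps its exons.

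The other IL-1 family ligands described here peaked in different mice. Il1a, which acts on the same receptor as Il1b, measured 1.35, 1.17, 0.133 and 0.377 FPKM in rFGF4-treated mice and 0.0972, 4.94, 0.873 and 1.49 FPKM in vehicle-treated mice, highest in vehicle mouse 3, with a log2 fold change of -0.48 ± 0.49 (SE) that became -0.04 without that mouse and -0.85 without vehicle mouse 2. Il33, an alarmin stored in the nuclei of stromal and epithelial cells, measured 8.26, 5.50, 2.42 and 3.05 FPKM in rFGF4-treated mice and 2.48, 2.67, 2.19 and 18.7 FPKM in vehicle-treated mice. Vehicle mouse 5 alone exceeded the highest rFGF4-treated mouse for Il33, and the other vehicle-treated mice were within 0.5 FPKM of each other, with a log2 fold change of 0.01 (SE 0.61). Il18, which is made by macrophages and kidney tubules, was steadier, with 1.92, 1.77, 1.19 and 1.20 FPKM in rFGF4-treated mice and 1.26, 1.52, 0.864 and 2.96 FPKM in vehicle-treated mice. Il1f6, also called IL-36 alpha, was listed at 0 in rFGF4 mouse 5 and vehicle mouse 2 and ran up to 16.1 FPKM in rFGF4 mouse 1 and 6.42 FPKM in vehicle mouse 5. Its log2 fold change was 0.87 ± 0.94 (SE), -0.13 with the replicate number as a block, and from 0.19 without rFGF4 mouse 1 to 1.55 without rFGF4 mouse 5 on leaving out single mice.

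Among the IL-1 family receptors, Il1r2, a decoy that binds Il1b without signalling, measured 3.15, 0.665, 0.328 and 0.958 FPKM in rFGF4-treated mice and 0.101, 4.26, 0.467 and 2.94 FPKM in vehicle-treated mice. Its highest mouse, vehicle mouse 3, was that of Il1a and Il1b. Il18r1, the signalling receptor of Il18, was over 4 FPKM in rFGF4 mouse 1 and vehicle mouse 5 and at most 1.33 FPKM in the other 6. Il18bp, the secreted inhibitor of Il18, ranged from 1.69 to 6.37 FPKM in rFGF4-treated mice and from 0.820 to 8.70 FPKM in vehicle-treated mice. Of the 10 genes of this group, 4 were tested and none passed, with log2 fold changes from -0.23 to 0.07.

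Il15 had the smallest p of the family. This ligand, which kidney tubules express and which sustains natural killer and memory T cells, measured 2.07, 2.18, 1.90 and 3.46 FPKM in rFGF4-treated mice 1, 2, 3 and 5 and 3.18, 2.92, 3.16 and 3.17 FPKM in vehicle-treated mice 2, 3, 4 and 5. Levels in rFGF4 mice 1, 2 and 3 were below all vehicle-treated mice, whereas rFGF4 mouse 5 had the highest of the 8. The log2 fold change was -0.29 (SE 0.16; 95% interval -0.65 to 0.06), with an exact permutation p of 0.143 and a limma adjusted p of 0.918. Without rFGF4 mouse 5 the log2 fold change was -0.43 with an unadjusted limma p of 0.00704, short of a 1.5-fold change. No other IL-2/IL-4 family ligand was tested. Of the receptors of that family, Il2rg, the chain shared by IL-2, IL-4, IL-7, IL-9, IL-15 and IL-21 receptors on lymphocytes, measured 8.05, 5.29, 1.48 and 1.28 FPKM in rFGF4-treated mice and 0.755, 5.20, 1.24 and 20.8 FPKM in vehicle-treated mice. Il4ra and Il13ra1, which pair to form a receptor for IL-4 and IL-13 on epithelial and other non-lymphoid cells, were both highest in rFGF4 mouse 1, at 12.7 and 19.6 FPKM, with log2 fold changes of 0.22 ± 0.45 and 0.34 ± 0.31 (SE). These ran from -0.12 to 0.48 and from 0.08 to 0.53 on leaving out single mice. Both were negative with the replicate number as a block.

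The gp130 receptor chain Il6st differed by 2.02 times between its highest and lowest mouse. It transmits the signals of IL-6, IL-11 and related cytokines, and measured 18.5, 14.0, 11.8 and 9.93 FPKM in rFGF4-treated mice and 9.17, 10.1, 9.13 and 14.9 FPKM in vehicle-treated mice. The upper 3 rFGF4-treated mice were above vehicle mice 2, 3 and 4 and vehicle mouse 5 was above all rFGF4-treated mice but mouse 1, with a log2 fold change of 0.29 (SE 0.22). Il6ra, the chain that binds IL-6, measured 2.43, 1.31, 0.765 and 0.325 FPKM in rFGF4-treated mice and 0.372, 0.251, 0.349 and 1.78 FPKM in vehicle-treated mice (log2 fold change 0.38 ± 0.35, SE). Its ligand Il6 was at most 0.229 FPKM in any mouse and at 0 in 3 of them. Il11ra1, the receptor chain for IL-11, had the narrowest interval of the 50 tested members, with 9.68, 9.11, 9.07 and 9.95 FPKM in rFGF4-treated mice and 11.1, 9.85, 9.20 and 11.4 FPKM in vehicle-treated mice. Its near-identical copy Il11ra2 and the overlapping gene Ccl27a make the split of its reads uncertain.

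IL-10 and IL-17 receptor chains were expressed while no ligand of either family passed the filter. Il10rb, a chain shared by IL-10, IL-22 and interferon lambda receptors, measured 20.5, 13.0, 11.1 and 8.57 FPKM in rFGF4-treated mice and 11.1, 10.7, 8.32 and 17.8 FPKM in vehicle-treated mice. Il10ra, the IL-10 binding chain found mainly on leukocytes, varied more widely, with 3.55, 4.40, 1.55 and 0.721 FPKM in rFGF4-treated mice and 0.495, 1.94, 0.933 and 8.72 FPKM in vehicle-treated mice. Il10 itself was listed at 0 in 5 of the 8 mice and did not exceed 0.0751 FPKM. Il17ra, Il17rb and Il17rc, subunits of the receptors for IL-17 and IL-25, had log2 fold changes of 0.06, -0.03 and 0.27, and Il20rb, a subunit of the receptors for IL-20 family cytokines, one of 0.10. The hematopoietic receptor chains Il3ra and Il5ra had log2 fold changes of 0.17 and -0.04.

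Of the TNF superfamily ligands, 7 of 14 were tested and none passed, with log2 fold changes from -0.10 to 0.35. Tnf, the founding inflammatory ligand, measured 3.73, 1.66, 0.342 and 0.620 FPKM in rFGF4-treated mice and 0.0939, 2.61, 0.344 and 5.50 FPKM in vehicle-treated mice (log2 fold change -0.08 ± 0.63, SE). Both groups covered most of the range, from 0.342 to 3.73 FPKM and from 0.0939 to 5.50 FPKM. Ltb, lymphotoxin beta, which is made by lymphocytes and organises lymphoid tissue (ENSMUSG00000024399, chr17:35194439-35196320, plus strand, GRCm38), measured 9.94, 2.36, 0.8288 and 0.999 FPKM in rFGF4-treated mice and 0.465, 1.91, 0.684 and 23.9 FPKM in vehicle-treated mice. Without rFGF4 mouse 1 and vehicle mouse 5, no mouse exceeded 2.36 FPKM. Tnfsf10 (TRAIL), a death-inducing ligand, was steadier at 9.58, 8.52, 3.85 and 5.69 FPKM with rFGF4 and 5.98, 12.3, 4.05 and 7.79 FPKM with vehicle, and Tnfsf13b (BAFF), the survival factor of B cells, was at most 1.54 FPKM, in vehicle mouse 5.

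Upstream sequences are shown for 3 members that peaked in different mice, Tnfrsf12a in rFGF4 mouse 1, Il1b in vehicle mouse 3 and Ltb in vehicle mouse 5. Each is the 250 bases before the gene's start in RefSeq on GRCm38.p6, written 5′ to 3′ along the gene's strand, at chr17:23677450-23677699 (minus strand), chr2:129371140-129371389 (minus strand) and chr17:35194257-35194506 (plus strand). Capitals mark a TATAAA match 31 to 26 bases upstream of the start of Il1b and a match to the NF-kB consensus 87 to 78 bases upstream of the start of Ltb. Neither of these motifs nor the AP-1 motif TGANTCA was found in the sequence of Tnfrsf12a. For Tnfrsf12a and Ltb, the RefSeq start lies inside the gene position given above, which is from GENCODE. The last bases of their stretches thus overlap the gene as placed there, and distances are from the RefSeq start.
Tnfrsf12a: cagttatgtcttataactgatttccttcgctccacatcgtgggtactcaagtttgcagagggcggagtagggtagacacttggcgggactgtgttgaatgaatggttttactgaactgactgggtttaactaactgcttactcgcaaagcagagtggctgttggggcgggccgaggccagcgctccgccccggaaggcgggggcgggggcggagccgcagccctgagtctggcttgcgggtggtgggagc
Il1b: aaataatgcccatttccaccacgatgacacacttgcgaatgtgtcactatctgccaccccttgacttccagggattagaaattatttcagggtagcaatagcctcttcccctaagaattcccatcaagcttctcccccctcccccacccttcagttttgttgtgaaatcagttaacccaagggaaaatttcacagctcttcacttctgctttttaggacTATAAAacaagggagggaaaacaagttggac
Ltb: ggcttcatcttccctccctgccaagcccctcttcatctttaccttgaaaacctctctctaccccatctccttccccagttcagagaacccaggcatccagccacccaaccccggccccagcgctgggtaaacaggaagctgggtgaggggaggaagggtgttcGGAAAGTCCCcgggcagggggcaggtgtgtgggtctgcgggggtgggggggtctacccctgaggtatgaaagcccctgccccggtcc

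Of the 50 tested members, 41 had an upstream sequence. On searching both strands, with overlapping matches allowed, 1 member held the NF-kB consensus (2.44%, against 7.01% of 27018 promoters), 5 held TGANTCA (12.2%, against 6.87%) and 6 held TATAAA (14.6%, against 13.0%). The 6 with TATAAA were Il1a, Il1b, Il18, Il33, Tnf and Tnfrsf23. A match of letters is a description of the sequence and no evidence that a factor binds there.

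Among the death-domain receptors, Tnfrsf21 was the most abundant member in every mouse but rFGF4 mouse 1, in which Il34 was higher. Tnfrsf21 (death receptor 6) measured 64.5, 84.1, 121 and 83.3 FPKM in rFGF4-treated mice and 88.6, 71.0, 73.6 and 58.4 FPKM in vehicle-treated mice. It was highest in rFGF4 mouse 3 and lowest in vehicle mouse 5, with a log2 fold change of 0.25 ± 0.21 (SE). Tnfrsf1a, the widely expressed TNF receptor that carries a death domain, measured 56.9, 40.7, 27.7 and 17.1 FPKM in rFGF4-treated mice and 18.2, 31.0, 16.3 and 32.9 FPKM in vehicle-treated mice, means of 35.6 ± 17.2 and 24.6 ± 8.54 FPKM (SD, n = 4). Its log2 fold change was 0.45 (95% interval -0.43 to 1.32), and rFGF4 mouse 5 was below 3 of the 4 vehicle-treated mice. It was 0.18 without rFGF4 mouse 1, 0.74 without rFGF4 mouse 5 and 0.02 with the replicate number as a block. Tnfrsf25 (death receptor 3), a receptor of T cells for Tnfsf15, measured 1.503, 0.931, 0.657 and 1.19 FPKM in rFGF4-treated mice and 0.585, 1.71, 2.10 and 2.71 FPKM in vehicle-treated mice. The difference, -0.37 ± 0.27 (SE) on the log2 scale, passed the threshold only when vehicle mouse 2 was left out, at -0.62 with an unadjusted p of 0.0125 and a limma adjusted p of 0.999.

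Receptors that bind TRAF adaptors without a death domain included Tnfrsf12a, above. Tnfrsf1b, the TNF receptor of leukocytes and activated endothelium, measured 16.4, 9.92, 5.38 and 2.46 FPKM in rFGF4-treated mice and 1.17, 7.60, 1.84 and 13.4 FPKM in vehicle-treated mice (log2 fold change 0.62, 95% interval -0.997 to 2.23). Its range within the vehicle group was wider than the difference between the group means, and the log2 fold change was -0.05 with the replicate number as a block, 0.19 without vehicle mouse 2 and 1.10 without vehicle mouse 5. Ltbr, the lymphotoxin beta receptor of epithelium and stroma, was even, with 45.8, 38.1, 29.97 and 25.6 FPKM in rFGF4-treated mice and 27.1, 37.3, 26.0 and 31.4 FPKM in vehicle-treated mice and a log2 fold change of 0.17 ± 0.20 (SE). Tnfrsf4 (OX40), a costimulatory receptor of activated T cells, was at 4.30 FPKM in vehicle mouse 5 and at most 1.73 FPKM in the other mice. Of the decoy and other receptors, Tnfrsf23 and Tnfrsf26 had log2 fold changes of 0.06 and -0.05, both genes share exons with E230032D23Rik, and Tnfrsf11b (osteoprotegerin), a soluble decoy for Tnfsf11, was not tested, at 0.0334 to 1.06 FPKM in rFGF4-treated mice and 0.135 to 1.89 FPKM in vehicle-treated mice.

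Mice of the same group differed more in these genes than in most others. The median SD within groups was 0.556 on the log2(FPKM + 1) scale for the tested members and 0.275 for all genes tested, and 84.4% of all genes had a smaller SD than the median member. For the 48 tested members above 0 in every library, the highest mouse was a median of 6.71 times the lowest, against 2.17 times for all genes tested. This ratio was over 10 for 17 members (35.4%) and for 7.41% of all genes tested. It was 96.7 for Il1b, 58.6 for Tnf, 51.5 for Ltb, 50.8 for Il1a and 25.9 for Il34, and 1.25 for Il11ra1. No test was made of these differences between the members and other genes.

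Members peaked in few of the animals. The highest value lay in rFGF4 mouse 1 for 23 of the 50 tested members (46%), close to its share among all genes tested (48.1%). Vehicle mouse 5 was highest for 16 members (32%, against 13.4% of all genes), among them Ltb, Tnf, Il2rg, Il10ra, Il18r1, Il33, Tnfrsf4, Tnfrsf25 and Tnfsf13b. Vehicle mouse 3 was highest for 7 members (14%, against 6.89%), among them Il1a, Il1b and the decoy Il1r2. Vehicle mice 2 and 4 were highest for 0 members, against 7.12% and 5.11% of all genes. They were lowest for 19 (38%, against 20.2% of all genes) and 14 (28%, against 17.7%). The heat map groups the members by their highest mouse.

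**Figure D3:**
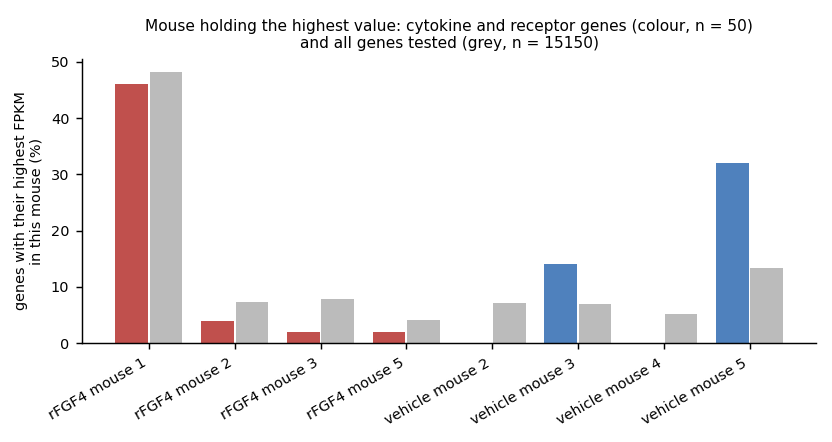
Percentage of genes whose highest FPKM was in each mouse, for the 50 tested members (coloured bars) and all 15150 genes tested (grey bars). rFGF4 mouse 1 holds 46% of members and 48.1% of all genes, and vehicle mouse 5 holds 32% and 13.4%.

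**Figure D4:**
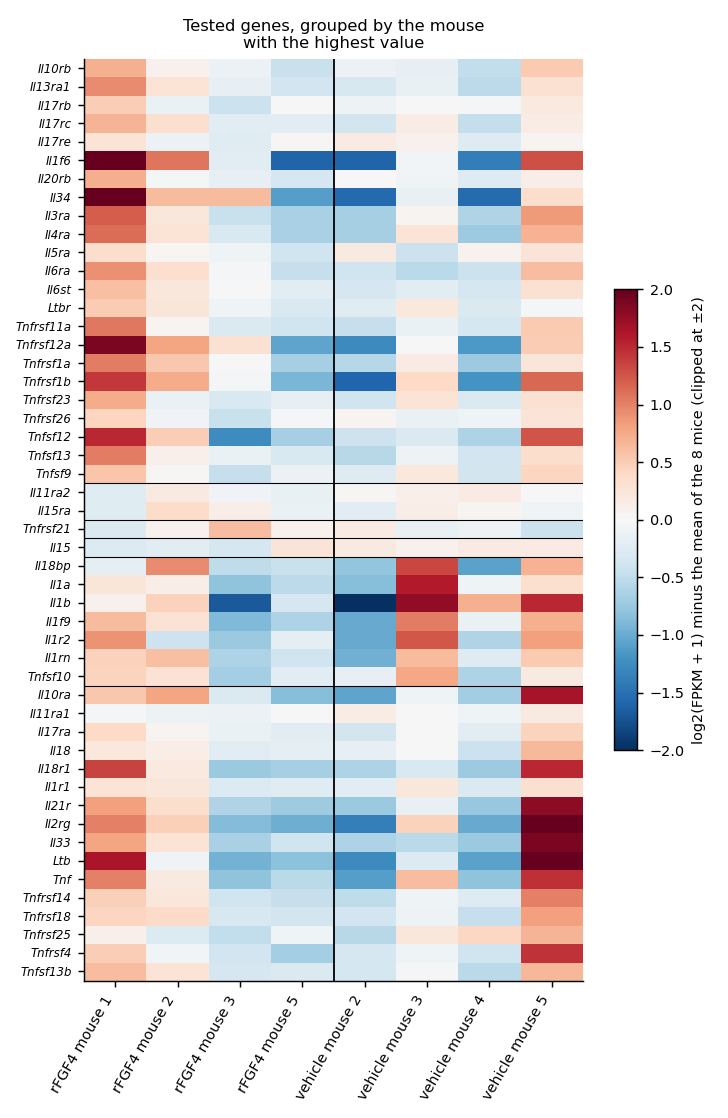
Log2(FPKM + 1) of each tested member minus its mean over the 8 mice, clipped at 2 in either direction, with members in rows grouped by the mouse with the highest value and a line between the rFGF4 and vehicle groups. Red cells gather in rFGF4 mouse 1 and in vehicle mice 3 and 5, and blue cells in vehicle mice 2 and 4.

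Among the 68 members that were not tested, the leading mouse was vehicle mouse 5, which had the highest value for 31 of them, ahead of rFGF4 mouse 1 with 14. These are values only, and no share over the other untested genes was computed. Il7r, Il2rb, Tnfrsf13c and Tnfrsf17, receptors of lymphocytes and plasma cells chosen here after their values were seen, measured 3.34, 5.12, 3.43 and 2.53 FPKM in vehicle mouse 5. In the other 3 vehicle-treated mice they did not exceed 0.144, 0.386, 0.0869 and 0.168 FPKM. In rFGF4 mouse 1, Il7r and Il2rb reached 2.06 and 2.10 FPKM, and Il2rb was at 1.02 FPKM in rFGF4 mouse 2, so for these genes the high values were not limited to vehicle mouse 5. Tnfrsf13c and Tnfrsf17 did not exceed 0.388 and 0.0621 FPKM in rFGF4-treated mice.

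Marker genes of leukocytes varied among the same mice. All 8 macrophage markers were tested and above 0 in every library, and their summed FPKM was 1281, 463, 128 and 85.2 in rFGF4-treated mice 1, 2, 3 and 5 and 46.9, 333, 59.1 and 1811 in vehicle-treated mice 2, 3, 4 and 5. In the same order of mice, neutrophil markers summed to 221, 37.6, 20.5 and 75.8 FPKM and 2.69, 368, 54.4 and 168 FPKM, highest in vehicle mouse 3 as were Il1a, Il1b and Il1r2; 2 of the 4 were tested, and Ly6g and Mpo were at 0 in 4 and 5 libraries. T lymphocyte markers summed to 15.04, 8.18, 1.57 and 4.03 FPKM and 3.42, 2.51, 2.56 and 39.1 FPKM, with 1 of 6 tested and Cd3d at 0 in 1 library. The B lymphocyte and plasma cell list, of which 5 of 7 were tested and Ms4a1 was at 0 in 3 libraries, summed to 2814, 709, 79.2 and 649.8 FPKM and 62.3, 1457, 26.7 and 23872 FPKM. Lymph node stroma markers, 3 of 5 tested and Madcam1 at 0 in 5 libraries, summed to 8.61, 10.6, 6.64 and 4.97 FPKM and 3.63, 12.1, 2.81 and 59.3 FPKM. Mast cell markers, none tested, summed to at most 11.3 FPKM, in rFGF4 mouse 1. Endothelium markers, 4 of 4 tested, summed to 18.0 to 27.2 FPKM and 22.4 to 34.5 FPKM, and red blood cell markers, 5 of 5 tested, to 120.3 to 2657 FPKM and 1139 to 4325 FPKM. No gene of these lists passed the threshold, and their part in the levels of the cytokines and receptors was not tested.

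**Figure D5:**
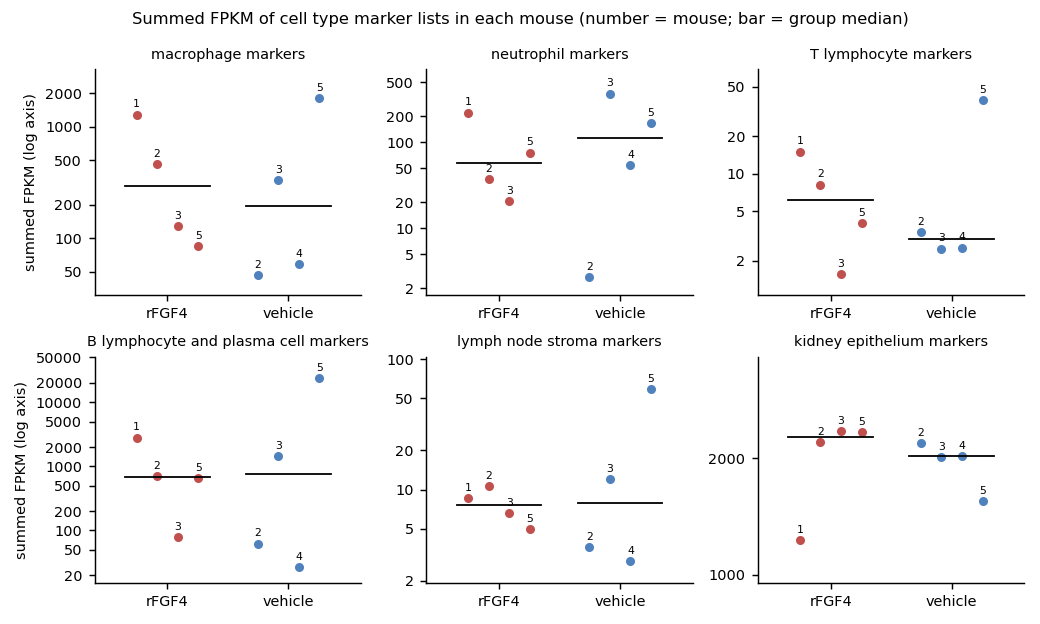
Summed FPKM (log axis) of the markers of 6 cell types in each mouse, with the mouse number above each point and a bar at the group median of 4 mice. Vehicle mouse 5 is highest for macrophage, T cell, B cell and lymph node stroma markers, vehicle mouse 3 for neutrophil markers, and rFGF4 mouse 1 is lowest for kidney epithelium markers.

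With rFGF4 mouse 1 and vehicle mouse 5 both left out, 0 members passed the threshold, while 273 of all genes did. The log2 fold change was then 1.14 for Il34, 0.83 for Tnfrsf12a, -0.49 for Il1b and -0.24 for Il15, and it changed sign for 8 of the 38 tested members selected by the rule for named members. Among these 8, Ltb went to 0.26, Tnf to 0.04 and Il2rg to 0.18, each smaller than its SE.

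Genes that act with these receptors gave the same count. Of 25 related cytokines and receptors under other symbols, such as the IL-6 family and CD40 and its ligand, 15 were tested and 0 passed in either direction, with a median log2 fold change of 0.02. All 24 adaptors of IL-1 and TNF receptors were tested and 0 passed, with a median of 0.15 and 19 of 24 positive. Over all genes tested, 1.52% passed, and the median of 0.09 became -0.01 under median-ratio scaling. The share of positive genes over all genes tested was not computed. The 4 JAK kinases, which most interleukin receptors use, were tested and 0 passed, with a median of 0.11, beside 0.09 for all genes tested.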

How the data were processed

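Kidney poly(A) RNA of 8 mice was sequenced as paired-end libraries. The authors built the transcripts of each library with StringTie, combined the libraries with gffcompare and deposited FPKM per gene. The submitters' processing notes list Bowtie 0.12.2, HISAT2 2.0, StringTie 1.3.0 and the build mm8 without roles. The deposited fold change, log2 fold change, p-value and q-value columns of the authors' own comparison were not used. Members, lists and tests were chosen with earlier results of these data known.

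Samples were grouped by their labels. Genes with at least 0.5 FPKM in 4 or more libraries (15150) were compared on log2(FPKM + 1) by limma 3.58.1 (R 4.3.3; lmFit and eBayes with trend; Benjamini-Hochberg over all genes), a procedure tested on simulated data. The study's criteria (p under 0.05, fold change of at least 1.5) were applied to this fit, since the edgeR test used by the authors needs read counts. Single genes were also compared by exact two-sided permutation. The labels number the libraries, called mice here, without saying that each is a separate animal, so p-values measure the spread between these libraries.

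Positions came from GENCODE M21 on GRCm38, matched by Ensembl identifier for all 118 members, and upstream sequences from RefSeq on GRCm38.p6. Members named are those past the threshold or with groups that do not overlap, the 3 most abundant tested members of each role, the 5 largest and 5 smallest fold changes, and 17 cytokines and receptors of diabetic kidney disease; others were chosen after their values were seen. Figures used matplotlib 3.10.9 in Python 3.11.15. Alternatives were another pseudocount, filter, scaling, threshold and variance model, each mouse left out, and the replicate number as a block.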

Additional observations from a re-analysis of the deposited data

Results flagged for a closer look

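Within each group, a mouse was singled out for a gene or marker list when its gap to the nearest other mouse, divided by the range of the group, was above the 95% critical value of Dixon's test for 4 values. The gaps were taken on log2(FPKM + 1) for genes and on summed FPKM for marker lists. Of 82 groups of gene values, 6 were singled out, and of 18 groups of marker sums, 6 on summed FPKM and 3 on log2(summed FPKM + 1), a scale added after seeing the data. Chance flags about 1 in 20 groups of independent, normally distributed values, and neither these genes nor the sums are independent of each other.

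Vehicle mouse 5 was the highest of its group for 4 of these genes. The gap was 1 of the range for Il10, a value fixed by the other 3 vehicle-treated mice being at 0, with this mouse at 0.0751 FPKM. It was 0.923 for Il33, 0.884 for Il6ra and 0.8293 for Tnfrsf4. On summed FPKM, this mouse was also highest with a gap of 0.975 for T lymphocyte markers, 0.940 for B lymphocyte and plasma cell markers, 0.931 for mast cell markers, 0.838 for macrophage markers and 0.835 for lymph node stroma markers. On the log2 scale the gap was 0.905 for T lymphocyte and 0.896 for mast cell markers, and under the critical value for B lymphocyte and plasma cell (0.414), macrophage (0.465) and lymph node stroma markers (0.552). Without this mouse the log2 fold changes of Il33 and Tnfrsf4 were 0.64 and 0.12, each short of the threshold.

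In rFGF4 mouse 1, Tnfrsf23 was highest with a gap of 0.837 and kidney epithelium markers were lowest with a gap of 0.866 (0.898 on the log2 scale). Vehicle mouse 3 was the lowest of its group for Il15, with a gap of 0.936, although the 4 vehicle-treated mice were only 2.92 to 3.18 FPKM.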

How the results depend on the processing

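The count of 0 members past the threshold was the same with a pseudocount of 0.1, no filter, a filter of 1 FPKM, both scalings, no variance trend, a fold change of at least 2, an unadjusted p under 0.05 alone, an adjusted p under 0.05, the replicate block, and without rFGF4 mouse 1 and vehicle mouse 5 together. With each mouse left out in turn it was 0 to 2. The 2 members were Il34 and Tnfrsf12a without rFGF4 mouse 5, and Il1b and Tnfrsf25 without vehicle mouse 2. Over all genes, 231 passed, and the count became 348 with a pseudocount of 0.1, 54 at a fold change of at least 2, 700 by unadjusted p alone and 0 by limma's adjusted p. It was 187 to 575 with each mouse left out, highest without rFGF4 mouse 5, and 432 without vehicle mouse 5. The split of higher against lower genes was 165 against 66, and became 93 against 84 under median-ratio scaling and 279 against 42 under scaling to non-mitochondrial FPKM.

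The shared mouse numbers gave no pairing: the deviations of same-numbered mice from their group means correlated at -0.229 (number 2), -0.155 (number 3) and -0.393 (number 5). With the number as a replicate block, 262 genes and 0 members passed. rFGF4 mouse 1 and vehicle mouse 4 have no same-numbered mouse in the other group. They therefore do not enter the log2 fold changes of the block fit. Log2 fold changes changed sign under single alternatives, of which the block and the leave-out fits rest on fewer mice, and the cause was not tested. The largest that did so were, as reported, 0.87 for Il1f6, 0.62 for Tnfrsf1b and 0.34 for Il13ra1. Under the replicate block these were Il10ra -0.28, Il10rb -0.24, Il13ra1 -0.037, Il17ra -0.12, Il17rc -0.023, Il18r1 -0.60, Il1f6 -0.13, Il20rb -0.20, Il33 -0.49, Il3ra -0.37, Il4ra -0.32, Ltbr -0.038, Tnfrsf1b -0.052, Tnfrsf23 -0.26, Tnfsf12 -0.66 and Tnfsf13b -0.21. On leaving out rFGF4 mouse 1 and vehicle mouse 5 together, an alternative chosen after seeing the data, they were Il18 0.11, Il18bp 0.17, Il20rb -0.070, Il2rg 0.18, Ltb 0.26, Tnf 0.040, Tnfrsf23 -0.060 and Tnfsf12 -0.031. With the median-ratio scaling they were Il17ra -0.041, Il18r1 -0.0021, Il33 -0.088, Tnfrsf23 -0.00056 and Tnfsf12 -0.081, with the non-mitochondrial scaling Il17rb 0.048, Il18 0.038, Il5ra 0.0052 and Tnfsf10 0.0044, and with a pseudocount of 0.1 Ltb 0.060 and Tnf 0.18. Over the fits without a single mouse, the ranges that changed sign or passed the threshold were Il10ra -0.24 to 0.66, Il10rb -0.095 to 0.32, Il17ra -0.060 to 0.23, Il17rb -0.20 to 0.10, Il18 -0.18 to 0.19, Il18bp -0.46 to 0.34, Il18r1 -0.37 to 0.58, Il1b -1.70 to -0.25, Il1r2 -0.60 to 0.15, Il20rb -0.13 to 0.22, Il2rg -0.66 to 0.55, Il33 -0.25 to 0.64, Il34 0.78 to 2.05, Il3ra -0.20 to 0.48, Il4ra -0.12 to 0.48, Il5ra -0.19 to 0.082, Ltb -0.66 to 0.82, Tnf -0.47 to 0.39, Tnfrsf12a 0.50 to 1.47, Tnfrsf23 -0.17 to 0.18, Tnfrsf25 -0.62 to -0.21, Tnfrsf26 -0.20 to 0.090, Tnfrsf4 -0.53 to 0.12, Tnfsf10 -0.31 to 0.16, Tnfsf12 -0.46 to 0.46 and Tnfsf13b -0.052 to 0.38. None of these other values passed the threshold. The other named members kept their sign without any single mouse, over ranges of -0.17 to -0.076 for Il11ra1, 0.082 to 0.53 for Il13ra1, -0.43 to -0.22 for Il15, 0.088 to 0.39 for Il17rc, -0.85 to -0.036 for Il1a, 0.19 to 1.55 for Il1f6, 0.14 to 0.65 for Il6ra, 0.14 to 0.44 for Il6st, 0.030 to 0.30 for Ltbr, 0.18 to 0.74 for Tnfrsf1a, 0.19 to 1.10 for Tnfrsf1b and 0.089 to 0.39 for Tnfrsf21. Under the replicate block, Il6ra was 0.058, Il6st 0.075 and Tnfrsf21 0.40.

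Without read counts the counting error of low values is unknown, and the 10 tested members with a mean under 1 FPKM, among them Il5ra, Il20rb, Tnfrsf23 and Tnfrsf26, are the least certain.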
